A study of Mus musculus with 6 samples.

Results

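The subunits of the CCT chaperonin were followed in bulk RNA sequencing of YUMM3.3 melanoma tumors. The members were chosen by name as the 8 genes that encode the cytosolic ring, Tcp1, Cct2, Cct3, Cct4, Cct5, Cct6a, Cct7 and Cct8, out of 40166 genes in the count table. YUMM3.3 is a cultured mouse melanoma line with mutant BRAF, and its cells were injected under the skin of the lower back of C57BL/6 mice. In the vehicle group, 3 tumors came from mice given water by oral gavage. In the RGS group, 3 tumors came from mice given Rigosertib, a small-molecule inhibitor of RAS-effector signalling, at 300 mg/kg by the same route, and both groups were sampled at 17 days of treatment. The labels give no age for the mice, and the paper's methods give 8 to 10 weeks when tumors were established. The tumors are numbered as in the labels, 7, 8 and 9 for vehicle and 10, 11 and 12 for RGS. All 6 tumors share 1 cell line and 1 mouse strain, so they are a model of that line only. The labels do not say whether each tumor came from a different mouse, and p-values then measure the spread between these tumors.

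CCT, also called TRiC, is a barrel of 2 stacked rings in the cytosol, and each ring holds 1 copy of each of the 8 related subunits. Newly made proteins enter the barrel, and ATP binding closes it so that they fold inside. Actin and tubulin are its best known clients, together with proteins built on a beta-propeller such as G protein beta subunits and the cell cycle activator Cdc20. Prefoldin hands unfolded clients to CCT, and phosducin-like proteins bind it and modulate the folding. Dividing cells rely on CCT for tubulin and for regulators of mitosis. Since the ring holds the subunits in equal number, the balance among them is of interest beside their level.

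The libraries held 22793087 to 32555494 counts in the vehicle group and 13837932 to 21617368 in the RGS group, so every vehicle library was deeper and depth cannot be told apart from treatment. Levels are given in CPM, that is counts scaled to the library size after TMM adjustment, and log2 fold changes are RGS over vehicle. A gene was called at an adjusted p under 0.05 by edgeR's quasi-likelihood test over 15355 genes. Mitochondrial genes took 2.13% to 3.20% of counts in vehicle and 5.60% to 8.22% in RGS tumors, and ribosomal protein genes took 5.52% to 9.98% and 3.07% to 3.60%. The labelled tissue was checked by markers, and most melanocyte markers were absent or nearly so. The tumors are called melanoma here by their labels and not by these markers. Of 7 melanocyte lineage markers, Dct, Tyr and Mlana had 0 counts in every tumor and Tyrp1 at most 3, and the list summed to 4.94 to 7.68 CPM in vehicle and 4.53 to 10.5 CPM in RGS tumors. Of 10 leukocyte markers, Ptprc, Cd3e, Cd8a and Adgre1 had 0 counts in every tumor, while the whole list summed to 246 to 313 CPM in vehicle and 1008 to 1096 CPM in RGS tumors, carried by Laptm5. Fewer cells of a type and less RNA per cell cannot be told apart in bulk tumors.

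The 150 bases before the RefSeq start of 3 subunit genes show what lies upstream of a gene that rose, Cct8, and of 2 that were not called, Cct2 and Cct3. Bases in a gene's own row of the count table are left out. The Cct8 stretch lies at chr16:87495874-87496019 (minus strand), the Cct2 stretch at chr10:117063853-117064002 (minus strand) and the Cct3 stretch at chr3:88296985-88297115 (plus strand), all in GRCm38.p6. Of these bases, 21 for Cct8 lie in the row of B130034C11Rik, 15 for Cct3 lie in that of Tsacc, and 0 for Cct2 lie in any row. Capitals mark matches on either strand to the motifs that were searched, the GC box GGGCGG, the ETS core CCGGAAG and the CCAAT box. The genes are given in the order named above.
Cct8: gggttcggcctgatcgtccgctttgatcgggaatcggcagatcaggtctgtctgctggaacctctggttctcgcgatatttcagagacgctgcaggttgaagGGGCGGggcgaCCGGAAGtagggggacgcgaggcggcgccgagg
Cct2: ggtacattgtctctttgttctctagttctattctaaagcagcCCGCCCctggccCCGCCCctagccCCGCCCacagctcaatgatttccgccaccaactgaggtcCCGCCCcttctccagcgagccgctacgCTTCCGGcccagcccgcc
Cct3: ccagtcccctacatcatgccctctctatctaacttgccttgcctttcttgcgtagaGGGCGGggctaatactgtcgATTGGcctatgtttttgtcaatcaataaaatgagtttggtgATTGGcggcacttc
In the 250 bases before the start, all 7 subunit genes with a RefSeq window held a GC box, a motif found in 32.7% of 32851 windows. The ETS core was found for Cct8, 37 bases before the start, and for Cct2, against 6.91% of windows. A CCAAT box was found for Cct3, Cct6a, Cct7 and Tcp1, against 33.8% of windows. The inverted heat shock repeat, GAANNTTC or TTCNNGAA, was found for Cct5 and for the second of 2 windows of Cct2, against 12.8% of windows. The E-box CACGTG was found in 0 of the 9 windows, against 6.02% of windows. Cct4, the subunit with the largest fall, had no window and is not covered here. Among the genes with a window, those that fell did not share a motif that the others lacked. A match in letters is not a bound site. The subunit genes lie on 8 different chromosomes.

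The question asked of the comparison was which genes differed between RGS and vehicle tumors. The subunits did not move together. Cct4, Cct6a, Tcp1 and Cct5 were lower in RGS tumors, Cct8 was higher, and Cct2, Cct3 and Cct7 were not called. The log2 fold changes ran from -1.20 to 0.52 with a median of -0.24, against a median of -0.05 over all genes tested. In the background, 16.5% of genes tested were called lower and 16.3% were called higher. The groups did not overlap for 5 of the 8 subunits, against 45.8% of all genes tested. All 8 subunits were highly expressed, between the 95.0 and 99.1 percentile of the genes tested in counts per kilobase.

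**Figure D1:**
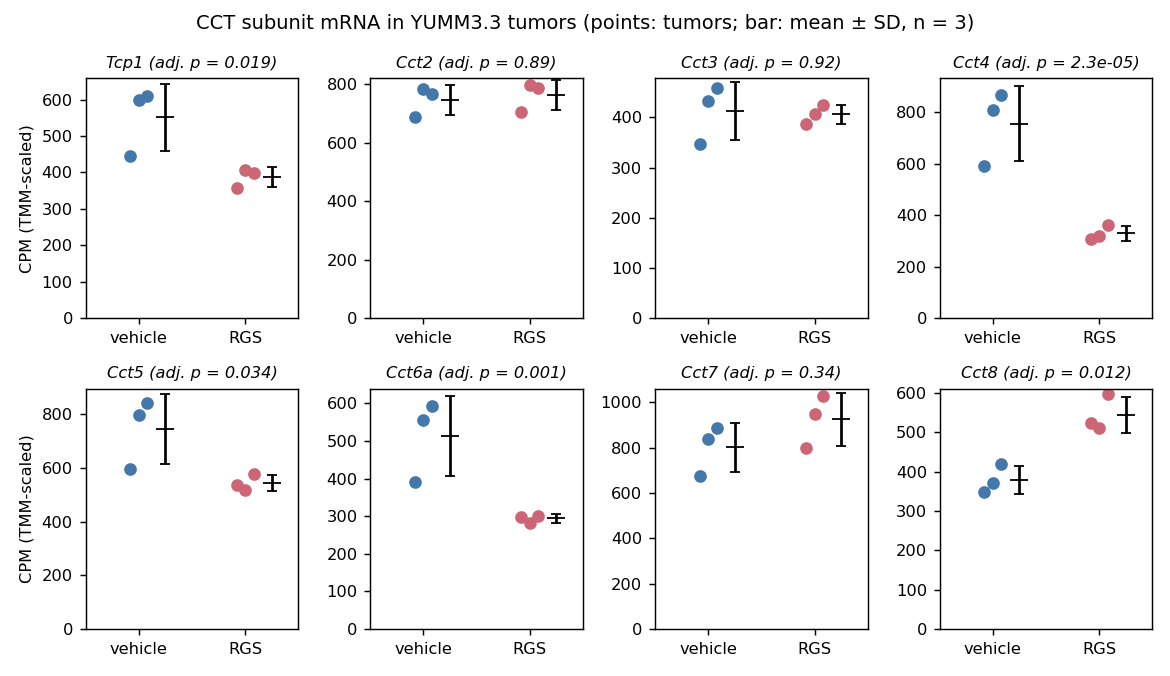
CPM of each CCT subunit in the 3 vehicle (blue) and 3 RGS (red) tumors, with the mean ± SD beside the points and the adjusted p in each title. The RGS tumors lie below all vehicle tumors for Tcp1, Cct4, Cct5 and Cct6a and above them for Cct8. The groups overlap for Cct2, Cct3 and Cct7.

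On one side of the ring stand Cct2, Cct4, Tcp1 and Cct5, which are the subunits that bind ATP most tightly, and they are described first. Cct4, the delta subunit, can form rings on its own when made in bacteria, as can Cct5. The gene lies at chr11:22990519-23003780, and its level was 591, 808 and 868 CPM in vehicle tumors 7, 8 and 9 and 307, 319 and 364 CPM in RGS tumors 10, 11 and 12. Every RGS tumor lay far below every vehicle tumor. The mean fell from 756 ± 146 to 330 ± 29.9 CPM (SD, n = 3 each), which is 43.6% of the vehicle level. The edgeR log2 fold change was -1.20 (SE 0.17, adjusted p = 2.27e-05), and 15.0% of the genes tested had a lower one. Cct4 was the subunit with the largest change.

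Tcp1, the alpha subunit, was the first of the family to be found and is named after the t complex of mouse chromosome 17, where it lies at chr17:12915701-12925067. It was measured at 446, 599 and 610 CPM in vehicle tumors and at 358, 408 and 398 CPM in RGS tumors. The groups did not overlap, but vehicle tumor 7 lay nearer to the RGS tumors than to the other two vehicle tumors. The means were 552 ± 91.8 and 388 ± 26.5 CPM, a log2 fold change of -0.51 (SE 0.16, edgeR adjusted p = 0.0190). The row shares 645 bases with Mrpl18, a mitochondrial ribosomal protein gene, whose own counts were at most 7.76% of those of Tcp1 and whose log2 fold change was -0.09 (edgeR adjusted p = 0.785). It also shares 1255 bases with Acat3, which had 1 to 43 counts, and holds Snora20, which had at most 1. The processed pseudogene Tcp1-ps1 had 0 counts in every tumor.

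Cct5, the epsilon subunit, at chr15:31590800-31601804, showed the weakest of the called decreases. Its level was 597, 797 and 841 CPM in vehicle tumors and 536, 516 and 577 CPM in RGS tumors. The highest RGS tumor lay just under vehicle tumor 7. The means were 745 ± 130 and 543 ± 30.8 CPM, a log2 fold change of -0.46 (SE 0.16, edgeR adjusted p = 0.0342). Leaving out 1 tumor ended both calls more easily than it moved the folds. Without vehicle tumor 8, vehicle tumor 9 or RGS tumor 10, neither was called (edgeR adjusted p for Tcp1 0.123, 0.0586 and 0.0896, and for Cct5 0.171, 0.116 and 0.101). The log2 fold changes were then -0.43, -0.43 and -0.46 for Tcp1 and -0.39, -0.36 and -0.45 for Cct5. Cct5 was also lost without RGS tumor 11 or 12 (edgeR adjusted p = 0.120 and 0.0511), at log2 fold changes of -0.43 and -0.52.

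Cct2, the beta subunit, at chr10:117051001-117063814, stayed within its spread. Its level was 687, 782 and 767 CPM in vehicle tumors and 704, 796 and 787 CPM in RGS tumors. The groups overlapped almost fully, with means of 745 ± 50.9 and 762 ± 50.7 CPM and a log2 fold change of 0.03 (SE 0.15, edgeR adjusted p = 0.889). Of the 4 tight binders of ATP, grouped after the values were seen, 3 were called lower and 0 higher. Over all genes tested, 16.5% were called lower and 16.3% higher. Of these 3 subunits, only Cct4 kept its call without vehicle tumor 8, vehicle tumor 9 or RGS tumor 10.

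The other side of the ring, Cct3, Cct6a, Cct7 and Cct8, binds ATP less tightly, and it held both directions. This grouping was applied after the values were seen. Cct6a, the zeta subunit, lies at chr5:129786998-129846371 in a row that the table types as a processed transcript. It was measured at 391, 557 and 593 CPM in vehicle tumors and at 299, 282 and 302 CPM in RGS tumors. All RGS tumors lay below the lowest vehicle tumor, and they differed little among themselves. The means were 514 ± 107 and 294 ± 10.9 CPM, which left 57.3% of the vehicle level, and the log2 fold change was -0.80 (SE 0.17, edgeR adjusted p = 0.00103). The row shares 452 bases at its start with Psph, which encodes the last enzyme of serine synthesis. Psph fell too, by 1.46 on the log2 scale (edgeR adjusted p = 8.49e-06), with 2647 to 2940 counts in vehicle and 549 to 694 in RGS tumors, at most 20.4% of the counts of Cct6a. Its part in the value of Cct6a was not tested. The testis paralog Cct6b had 2 to 17 counts a tumor and was not called.

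Cct8, the theta subunit, at chr16:87483326-87495873, was the only subunit called higher. Its level was 348, 371 and 418 CPM in vehicle tumors and 523, 511 and 597 CPM in RGS tumors. Every RGS tumor lay above every vehicle tumor. The mean rose from 379 ± 35.8 to 543 ± 46.6 CPM, to 143% of the vehicle level, with a log2 fold change of 0.52 (SE 0.15, edgeR adjusted p = 0.0119). With scaling by library size only, its log2 fold change was 0.38 and it was not called (edgeR adjusted p = 0.0561). It was also not called without vehicle tumor 8 or RGS tumor 12 (edgeR adjusted p = 0.0572 and 0.0794), at log2 fold changes of 0.52 and 0.43. Usp16, a neighbour that shares 192 bases, had counts of at most 13.4% of those of Cct8 and a log2 fold change of -0.14 (edgeR adjusted p = 0.601).

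Cct7, the eta subunit, at chr6:85451514-85468475, was measured at 677, 840 and 886 CPM in vehicle tumors and at 799, 946 and 1027 CPM in RGS tumors, and the groups overlapped. The means were 801 ± 110 and 924 ± 116 CPM, a log2 fold change of 0.21 that was not called (SE 0.16, edgeR adjusted p = 0.343). The row shares 457 bases with Pradc1, whose counts were at most 1.39% of those of Cct7 and whose log2 fold change of 0.75 was not called (edgeR adjusted p = 0.142). Cct3, the gamma subunit, at chr3:88297116-88321767, was measured at 348, 433 and 459 CPM in vehicle and at 387, 407 and 424 CPM in RGS tumors. All 3 RGS values of Cct3 lay inside the vehicle range, with means of 413 ± 58.2 and 406 ± 18.8 CPM and a log2 fold change of -0.03 (SE 0.15, edgeR adjusted p = 0.916). On this side of the ring, 1 subunit was called lower, 1 higher and 2 were not called, against 16.5% lower and 16.3% higher over all genes tested.

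**Figure D2:**
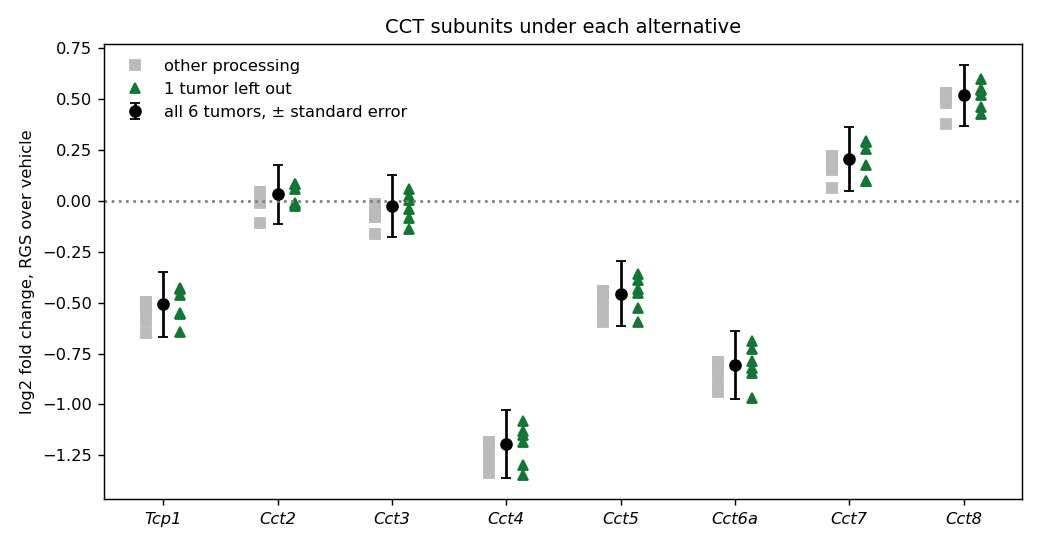
Log2 fold change of each CCT subunit (RGS over vehicle) with all 6 tumors (black, ± standard error), under other processing (grey squares) and with 1 tumor left out (green triangles). Cct4, Cct6a, Tcp1 and Cct5 stay below 0 and Cct7 and Cct8 above 0 under every alternative, while Cct2 and Cct3 lie on both sides of 0 or close to it.

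Within the vehicle group the subunits shared their lowest tumor. Vehicle tumor 7 had the lowest level of the vehicle tumors for all 8 subunits. It also had the lowest share of ribosomal protein counts in that group, 5.52% against 8.18% and 9.98%. Other genes, such as Hspa8, Vbp1 and Psma6, were lowest in that tumor too, while Hspd1 and Psmd2 were highest there. The share of all genes lowest in vehicle tumor 7 was not counted. Without vehicle tumor 7 the log2 fold changes were -1.35 for Cct4, -0.97 for Cct6a, -0.64 for Tcp1, -0.59 for Cct5 and 0.46 for Cct8, and all 5 were still called by edgeR. The coefficient of variation ran from 6.83% for Cct2 to 20.9% for Cct6a among vehicle tumors, and from 3.70% for Cct6a to 12.5% for Cct7 among RGS tumors. The summed level of the 8 subunits was 4085, 5186 and 5442 CPM in vehicle tumors and 3912, 4184 and 4475 CPM in RGS tumors. After TMM scaling the groups overlapped through vehicle tumor 7. The means were 4904 ± 721 and 4190 ± 282 CPM, a log2 ratio of -0.22 (exact permutation p = 0.3, two-sided, where 0.1 is the smallest that 3 against 3 tumors allows). Without vehicle tumor 7 the groups were apart and the log2 ratio was -0.35. Without Cct8, the log2 ratio of the other 7 was -0.30 (exact permutation p = 0.2). With scaling by library size only, the log2 ratio of all 8 was -0.36 (exact permutation p = 0.1). The 8 subunits took 0.440% to 0.555% of all counts in vehicle and 0.382% to 0.412% in RGS tumors, without overlap. Whether the groups were apart in summed level thus depended on the scaling.

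Since each ring takes the subunits in equal number, their mRNA balance was compared inside each tumor, where scaling between libraries has no effect. The share of each subunit was taken in the summed counts per kilobase, with the gene length in the deposited table, and an equal share would be 12.5%. That length covers all exons of a gene, and levels set between subunits depend on it. In vehicle tumors Cct2 and Cct5 were the most abundant, with mean shares of 22.6% and 20.7%, followed by Cct4 at 13.8% and Cct6a at 10.9%. Cct8 at 9.52%, Cct7 at 9.11% and Tcp1 at 8.43% came next, and Cct3 was last in every vehicle tumor. The vehicle ranges of Cct2 and Cct5 overlapped, as did those of Cct6a and Cct8 and of Cct8 and Cct7.

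In RGS tumors the balance was different. Cct4 went from 12.9%, 14.0% and 14.4% in vehicle tumors to between 6.89% and 7.36% in RGS tumors. Cct8 went from 10.3%, 8.75% and 9.44% to 16.2%, 15.0% and 16.4%. Cct4 held rank 3 of 8 in every vehicle tumor and rank 5, 6 or 7 in RGS tumors, and Cct8 moved from rank 4, 5 or 6 to rank 3. Cct6a went down from a mean of 10.9% to 7.35%, Cct5 from 20.7% to 17.7% and Tcp1 from 8.43% to 6.97%. Cct7 rose in share from 9.11% to 12.3% and Cct2 from 22.6% to 26.9%, and Cct3 reached 5.76%, up in every RGS tumor but still last. The subunits that were not called in level thus all took a larger share. Among RGS tumors the ranges of Cct6a, Cct4 and Tcp1 overlapped.

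The groups did not overlap for any of the 8 shares (exact permutation p = 0.1 for each, the smallest possible, and 0.1 after adjustment over the 8). Such separation is common here, with 45.8% of genes and 67.0% of ratios between genes of at least 100 CPM not overlapping. Shares of 1 total are also not independent of each other. With the longest basic transcript in GENCODE M21 as the length, an alternative added after the data were seen, all 8 directions were the same, with Cct4 at 13.7% and 6.97% and Cct8 at 7.19% and 11.9%. That transcript is coding for 7 subunits and a processed transcript for Cct6a. The order changed with it, since Cct8 was then last in vehicle tumors and Cct6a last in RGS tumors. The ratio of the most to the least abundant subunit went from 4.53 to 4.68 with the deposited length and from 2.51 to 3.24 with the transcript length.

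**Figure D3:**
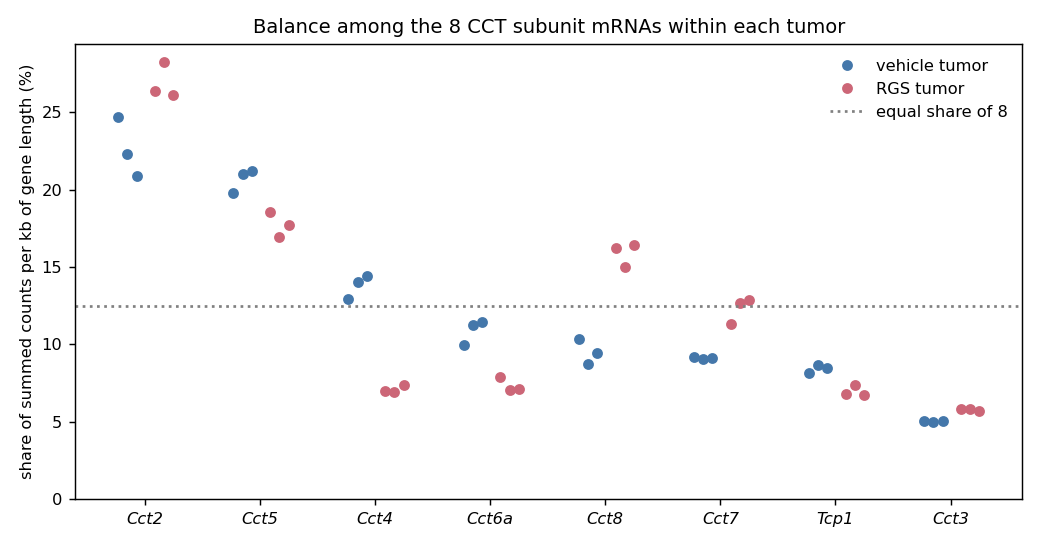
Share of each CCT subunit in the summed counts per kilobase of deposited gene length within each tumor (vehicle blue, RGS red), with a dotted line at the equal share of 12.5%. Cct4 falls from above the line to below it and Cct8 rises from below the line to above it, and the groups do not overlap for any subunit.

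Ratios between subunits gave the same picture pair by pair. Of the 28 pairs, 25 had ratios that did not overlap between the groups, which is 89.3%, against 67.0% of 2261001 pairs among genes of at least 100 CPM. The pairs that overlapped were Tcp1 with Cct5, Cct2 with Cct3 and Cct2 with Cct7. The largest difference was in Cct4 to Cct8, whose mean log2 ratio went from 0.98 in vehicle to -0.72 in RGS tumors, a difference of -1.70 (exact permutation p = 0.1). Cct4 to Cct7 followed with a difference of -1.39 and Cct6a to Cct8 with -1.30. Pairs share subunits, so their number is not a number of independent results.

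The cofactors that deliver clients to CCT were split as well. Of 6 prefoldin genes, 3 were called lower and 1 higher, with a median log2 fold change of -0.59. For this and the lists below, the shares over all genes tested were 16.5% lower and 16.3% higher. Vbp1, an alpha-type prefoldin subunit, fell from 158 ± 51.2 to 56.6 ± 6.35 CPM, a log2 fold change of -1.48 (SE 0.21, edgeR adjusted p = 2.36e-05). Pfdn5, the other alpha-type subunit, fell from 306 ± 156 to 116 ± 21.5 CPM, a log2 fold change of -1.40 (edgeR adjusted p = 0.000553). Pfdn4 fell by 0.79 on the log2 scale, and Pfdn6 rose by 0.77, though its groups overlapped. Pfdn4 lost its call in 4 of 19 alternatives and Pfdn6 in 3. Of the 3 phosducin-like genes tested, Pdcl, a partner of CCT in folding G protein beta subunits, fell by 1.11 on the log2 scale, with 51.6 to 58.3 CPM in vehicle and 19.0 to 31.0 CPM in RGS tumors (edgeR adjusted p = 0.000365). Pdcl3 and Txndc9 were not called, with log2 fold changes of 0.08 and -0.18.

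In the prefoldin-like complex around Uri1, 1 of 6 genes was called, Uri1 itself with a log2 fold change of -0.56, and the median was 0.16. Of the 6 tubulin folding cofactors, which take over tubulin after CCT, Tbcc was higher by a log2 fold change of 0.68 and Arl2 lower by -0.52, and the median was 0.01. The groups overlapped for Arl2.

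The client genes moved mostly the other way from Cct4. Of 14 tubulin genes tested, 9 were called higher and 0 lower, with a median log2 fold change of 0.93. Tubb2b rose from 28.5 ± 0.875 to 135 ± 3.16 CPM, a log2 fold change of 2.24 (edgeR adjusted p = 8.55e-09). Tuba4a and Tubb6 rose by 1.70 and 1.52 on the log2 scale. Tuba1b, an abundant alpha-tubulin singled out after its values were seen, was not called, with means of 453 ± 33.0 and 435 ± 14.2 CPM. Of 3 actin genes tested, the cytoplasmic Actb was higher by 0.92 on the log2 scale, Actg1 was not called at 0.06, and Acta2, the smooth muscle actin, was lower at -2.28. Of 8 beta-propeller clients tested, 4 were higher and 2 lower, with a median of 0.21. The 4 became 2 with upper-quartile factors, with library size only or at an adjusted p under 0.01. They also became 2 when vehicle tumor 8 or 9 or RGS tumor 10, 11 or 12 was left out. The 2 lower became 1 without vehicle tumor 8 or RGS tumor 10. Rptor lost its call in 9 of 19 alternatives. Gnb2, Fzr1 and Rptor had log2 fold changes of 0.61, 0.93 and 0.48, and Gnb4 and the mitotic activator Cdc20 had -0.87 and -0.74.

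Set against the median of the tubulin genes within each tumor, the median log2 level of the CCT subunits was 3.28, 3.81 and 4.04 higher in vehicle tumors and 1.79, 1.80 and 1.78 higher in RGS tumors. These are differences in CPM and not per length. The groups did not overlap, with a difference of -1.92 (exact permutation p = 0.1). The same difference against 12 genes of the cytosolic HSP70 and HSP90 system was 1.59, 1.89 and 1.90 in vehicle and 0.52, 0.59 and 0.49 in RGS tumors, a difference of -1.26 (exact permutation p = 0.1). Against 31 proteasome subunits it moved by -0.39, with the groups apart (exact permutation p = 0.1, and 0.1 for all 3 lists after adjustment). These values compare the middle genes of the lists and not their totals. The tubulin genes summed to 2343 to 2731 CPM in vehicle and 3996 to 4389 CPM in RGS tumors. For the HSP70 and HSP90 system the sums were 9087 to 9997 and 10141 to 11933 CPM, and for the proteasome 5522 to 8456 and 6741 to 7938 CPM.

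**Figure D4:**
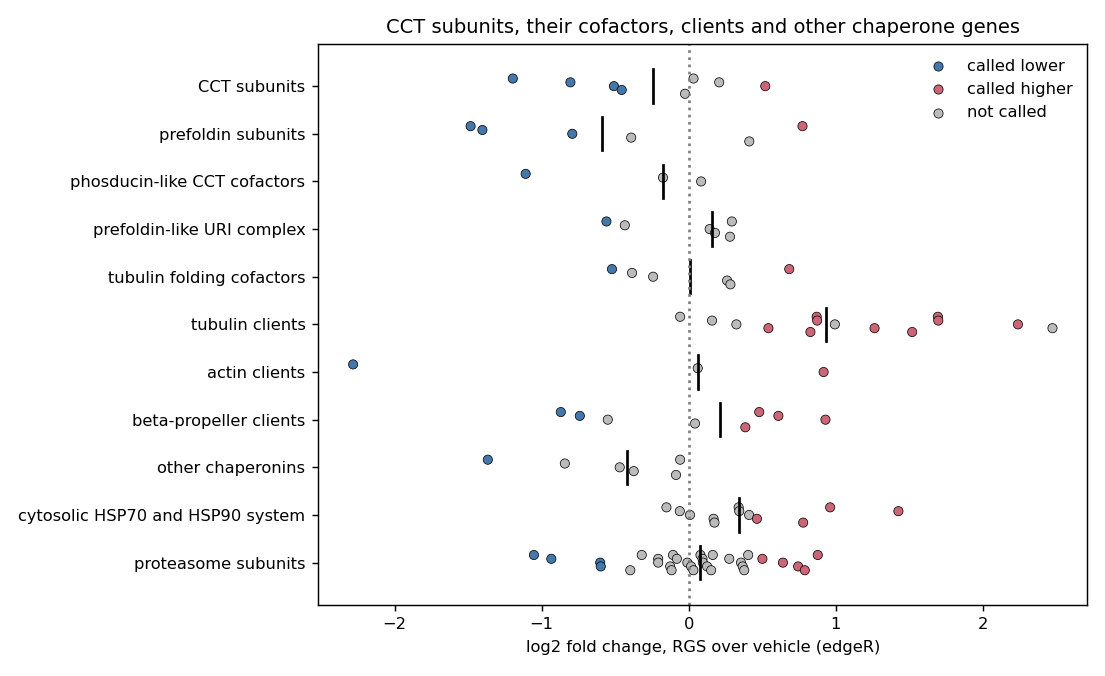
Log2 fold change (RGS over vehicle, edgeR) of every tested gene in 11 lists, coloured by call, with a black bar at each list's median. The CCT subunits spread from -1.20 to 0.52 around a median of -0.24, while the tubulins have a median of 0.93 and the prefoldins of -0.59.

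Other chaperones gave a mixed picture beside CCT. In the HSP70 and HSP90 system, which shares clients with CCT, 4 of 12 genes were called higher and 0 lower. Hsph1, Dnaja1 and Hspa4 rose by 1.42, 0.96 and 0.78 on the log2 scale. Hspa8, the abundant constitutive HSP70 named after its values were seen, was not called at -0.15. Of 6 other chaperonin genes, Hspe1, the lid of the mitochondrial chaperonin, fell by 1.37 on the log2 scale while the barrel gene Hspd1 was at -0.06 and not called. The heat shock factors Hsf1 and Hsf2 were at 0.16 and -0.13, and neither was called. Of 31 proteasome subunits, 4 were lower (12.9%) and 5 higher (16.1%), near the 16.5% and 16.3% of all genes tested, with a median of 0.08. Psmc6 was at -1.05 and Psmd1 at 0.88.

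Markers moved with the groups as well. Of 11 cell division genes, 10 were lower, with a median of -1.22 and summed levels of 1112 to 1166 CPM in vehicle and 545 to 616 CPM in RGS tumors. Of the 3 leukocyte markers tested, Laptm5 and Cd53 were higher, by 2.35 and 1.41 on the log2 scale. The leukocyte markers Ptprc, Cd3e, Cd8a and Adgre1 had 0 counts in every tumor. Of 5 endothelial markers, 3 were tested and 1 was higher, at summed levels of 0.946 to 1.20 and 3.24 to 11.2 CPM. Of 6 fibroblast markers, 5 were tested, 3 were lower and 1 higher, and the sums were 215 to 283 and 153 to 165 CPM. Of 6 keratinocyte markers, 2 were tested and 1 was higher, at 0.400 to 1.72 and 6.77 to 22.8 CPM. Of 5 skeletal muscle markers, 2 were tested and 0 were called, at 6.34 to 10.5 and 3.99 to 7.34 CPM. Emcn, Lum, Krt1, Ckm, Myh4 and Myh1 had 0 counts in every tumor. The part of these markers in the levels of the CCT subunits was not tested.

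The genes whose profile over the 6 tumors was nearest to the mean centred log2 profile of the 8 subunits were Ifrd1, Rps2, Poc5, Timm17a and Myl12a, out of 8895 compared. The root-mean-square difference was 0.0247 for Ifrd1 and 0.0505 for Myl12a on the log2 scale. For the subunits themselves, the difference from their own mean profile ran from 0.0970 for Cct5 to 0.404 for Cct8 and 0.458 for Cct4. The genes above were picked as the nearest of the 8895. Setting the subunits against them therefore does not measure how alike the family is. Cct4 and Cct8, which moved in opposite directions, were thus the least like the mean of the family.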

How the data were processed

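RNA was sequenced from tumors kept in RNAlater, as paired reads on a NovaSeq. The authors deposited whole-number counts per gene, 1 column per tumor, with gene positions and lengths in mm10. The submitters' processing notes name cutadapt 1.18, FastQC 0.11.7, STAR 2.7.1a and featureCounts 1.6.4. The strand setting is not given in the sources used here. All libraries were used. Genes with a median count of at least 5 in 1 group or more were kept, scaled by TMM and tested with edgeR 4.0.16 (quasi-likelihood, no covariates, R 4.3.3), with Benjamini-Hochberg adjustment over the 15355 genes tested. limma 3.58.1 and DESeq2 1.42.0 served as alternatives. Counts were also simulated with known changes, in far fewer genes than were called here. False calls then took a larger share than the threshold allows with edgeR, and more so with DESeq2. That share depends on how many genes change, so its size does not carry over to the calls in these tumors. Single values per tumor were compared by a two-sided exact permutation test. The members and gene lists were chosen with earlier results of these data known. The rule for naming genes covered all members, up to 3 genes per direction of each other list by adjusted p, and rows overlapping a member. It also covered pseudogenes and the 5 genes nearest in profile, and not all of these are printed. Some list genes that were not called are printed outside this rule. Examples are Actg1, Tuba1b, Pdcl3, Txndc9, Hspa8, Hspd1, Hsf1, Hsf2 and Cct6b, and markers at or near 0 counts. Positions matched GENCODE M21 for all 38971 genes found there, of 40166. Promoter windows came from RefSeq. Counting error was small for the subunits at these depths, but not for genes with few counts such as Cct6b. The spread between the 3 tumors of a group also limits precision.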

Additional observations from a re-analysis of the deposited data

How the results depend on the processing

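Each subunit was refitted under 19 alternatives. Of 152 such values, 125 kept their direction and side of the threshold, 18 kept the direction but were no longer called, and 9 changed sign, all in Cct2 and Cct3, which were never called. Cct2 was at -0.0071 with upper-quartile factors, -0.11 with library size only and -0.010 with limma voom, and from -0.025 to 0.085 with 1 tumor left out. Cct3 ran from -0.14 to 0.060 with 1 tumor left out. Cct4 was called in all 19 (log2 fold change from -1.35 to -1.08). With library size only, the median of all genes moved to -0.19, 0 subunits were called higher, and the calls over all genes were 3152 lower and 1870 higher. At an adjusted p under 0.01, 1562 genes were lower and 1607 higher, with 2 subunits lower and 0 higher. At an adjusted p under 0.05 with a log2 change of 1 or more in size, these were 1450, 1168, 1 and 0. With limma voom, 3408 genes were lower and 3407 higher. With all libraries thinned to the smallest, 4 subunits were called lower and 1 higher, with Cct4 at -1.19 and Cct8 at 0.52. With 1 tumor left out, 2 to 4 subunits were called lower and 0 to 1 higher. Of 930 values for 49 other named genes, 864 kept direction and side of the threshold, and Mrpl18, not called, ran from -0.23 to 0.0060. The share by transcript length was added after the data were seen. No paired analysis was possible because the vehicle and RGS tumors share no replicate number. With 3 tumors a group, a subunit that was not called may still have changed, also by more than its standard error.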
